A study of Homo sapiens with 6 samples.

Results

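The genes encoding integrins and laminins were followed by RNA-seq in MDA-MB-231 cells, an established line of human triple-negative breast cancer, after silencing of Sam68, the RNA-binding protein encoded by KHDRBS1. Members were taken by symbol: every locus of the deposited expression table named as an integrin α subunit, an integrin β subunit or a laminin α, β or γ chain, which gave 38 genes, 26 of integrins and 12 of laminins, of 74852 loci in all. One group (si-CTRL, 3 libraries) had received a control pool of siRNAs and the other (si-SAM68, 3 libraries) a pool of 4 siRNAs against SAM68, and per the labels both were transfected 2 times and harvested 24 h after the second round. Every library came from the same line, and a single pool was used against SAM68, so that loss of the protein and other effects of these siRNAs cannot be told apart. The labels do not say whether the 3 libraries of a group came from separate cultures, and p-values then measure the spread between these libraries, which may be technical.

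Integrins are receptors of an α and a β subunit that span the plasma membrane and tie the extracellular matrix to the cytoskeleton. The pair that forms decides the ligand: β1 joins most α subunits, αV joins several β subunits and binds matrix proteins with an RGD motif, and α6β4 binds laminin and anchors keratin filaments in hemidesmosomes. Laminins are secreted trimers of an α, a β and a γ chain that build the basement membrane, such as laminin-332, with chains encoded by LAMA3 and LAMB3 among others, the main ligand of α3β1 and α6β4 in epithelia.

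The 4 siRNAs of the SAM68 pool are shown because a guide strand can also pair with sites in other mRNAs, which were counted among the members. Each is the 19-base sense strand from 5′ to 3′, and the capitals mark bases 12 to 18, which read as the mRNA site that pairs with the seed (bases 2 to 8) of the guide strand. All 4 were found in the coding sequence of KHDRBS1.
siSAM68_1: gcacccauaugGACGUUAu
siSAM68_2: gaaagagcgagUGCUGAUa
siSAM68_3: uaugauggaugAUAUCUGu
siSAM68_4: aaagaucucugUAUUGGGa

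The silencing was seen in every library. KHDRBS1 stood at 15660.4, 14483 and 14737 normalized read counts in the si-CTRL libraries and at 583, 602 and 670.2 in the si-SAM68 libraries, a log2 fold change of -4.60 (SE 0.08, adjusted p = 2.13e-09). A normalized read count is the number of reads on a locus divided by the library's size factor. Summed over all loci, some of which overlap, libraries held between 52625492 and 82568487 reads. In si-SAM68 replicate 2, 15.1% of the reads fell on 1 ribosomal RNA locus, against 1.83% to 3.17% in the other libraries. Of the listed markers of the mesenchymal-like line, CD44 stood between 43246 and 68397 and AXL between 43113 and 60461 normalized read counts. VIM stood between 138300 and 173162, CAV1 between 59554 and 95518 and EGFR between 3138 and 4104. CAV1 was higher in si-SAM68 (log2 fold change 0.62, adjusted p = 0.00101). PGR was at 0 in every library and ESR1 did not exceed 15.2, whereas ERBB2, which encodes HER2 and is counted with MIR4728, stood between 2413 and 3447. The leukocyte markers PTPRC, CD3E, CD14, SPI1 and LYZ reached at most 13.6 in any library, the platelet markers GP9 and PF4 were at 0 and GP1BA reached at most 6.70, and the epithelial markers CDH1 and EPCAM reached at most 9.20.

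Of the 38 genes, 33 had a mean of at least 10 normalized read counts over the 6 libraries and were tested with limma, with Benjamini-Hochberg adjustment over all 18849 loci tested. Here a gene is said to have risen or fallen at an adjusted p under 0.05, and each fold change is of si-SAM68 over si-CTRL on the scale of log2(normalized read count + 1), which understates the change of low genes. 2 genes rose, ITGB4 and LAMA3, and 6 fell, ITGA9, ITGAX, LAMC3, ITGB3, LAMA2 and ITGA11. These 8 of 33 stand beside a background of 10.7% of all loci called (4.47% higher and 6.23% lower). The median log2 fold change was 0.06 over the 33 genes and 0.01 over all loci, with 22 of the 33 above 0. Leaving out 1 library at a time gave 1 to 5 genes that rose and 1 to 7 that fell, and the effect on each gene is given beside it. Without si-SAM68 replicate 2, the library rich in ribosomal RNA, ITGB4, ITGB3 and ITGA11 passed the test. Over all loci 808 then passed rather than 2017, against 923 and 625 without si-SAM68 replicates 1 and 3. Without si-CTRL replicates 1, 2 and 3 it was 2839, 1592 and 1103. The thresholds that the study used for gene expression (unadjusted p of at most 0.05 and fold change of at least 1.5) were also applied to the limma fit. Under them 5 genes were called, ITGB4 and ITGB8 higher and ITGA9, ITGAX and LAMC3 lower. The background was 7.67% (2.83% higher and 4.83% lower), and without si-CTRL replicate 1 it was 3 genes. These calls and this background are of the fit made here, not the study's own. In 7 genes all si-SAM68 libraries lay above all si-CTRL libraries and in 8 all lay below, against a background of 33.9% of loci whose groups did not overlap. RNA of whole cultures was measured, so that fewer cells with a transcript and less of it per cell cannot be told apart.

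**Figure D1:**
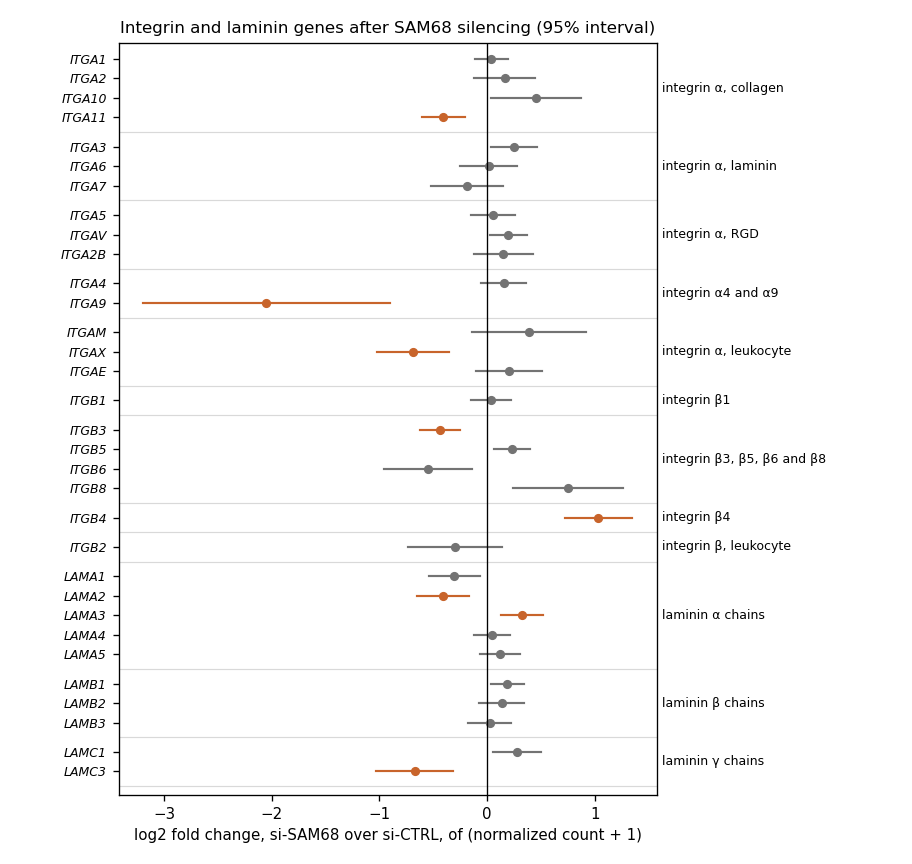
Log2 fold change of 32 of the 33 tested integrin and laminin genes (x axis, si-SAM68 over si-CTRL on normalized read count + 1), with 95% intervals from limma as bars and genes grouped by role. Orange marks the 8 genes with an adjusted p under 0.05, of which ITGB4 and LAMA3 lie to the right of 0 and 6 to the left, and ITGA9 has the widest interval.

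The 5 genes that were not tested were close to or at 0. ITGA8, an RGD-binding α subunit, had no read in any library, where 3 reads, the limit that a count of 0 allows, would be 2.76 to 3.75 normalized read counts. ITGAL and ITGAD, both α subunits of leukocytes, had 14 and 10 reads in all si-CTRL libraries together and 4 and 8 in all si-SAM68 libraries. ITGB7, a β subunit of lymphocytes, had 9 and 13 reads in the same way, and the laminin chain LAMB4 had 24 and 32.

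Levels of different genes were compared per kilobase of exon, in normalized read counts of si-CTRL. ITGB1, the β1 subunit, had the highest level of the 38 genes, at 39388 per kb. Next came α subunits that pair with β1, ITGA3 (20759.7 per kb) and ITGA5 (16462 per kb), then LAMB3 (12123 per kb) and ITGA6 (10254 per kb). ITGA2, LAMB1, ITGAV and ITGB5 were lower, as was LAMC1 at 2306 per kb. None of the 11 most abundant genes had an adjusted p under 0.05. The 8 genes that were called ranked between 17 and 33 of 38 by this level. ITGB3, whose value and exon length include EFCAB13, was the highest of them at 241 per kb, and ITGA9 the lowest at 3.07 per kb.

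**Figure D2:**
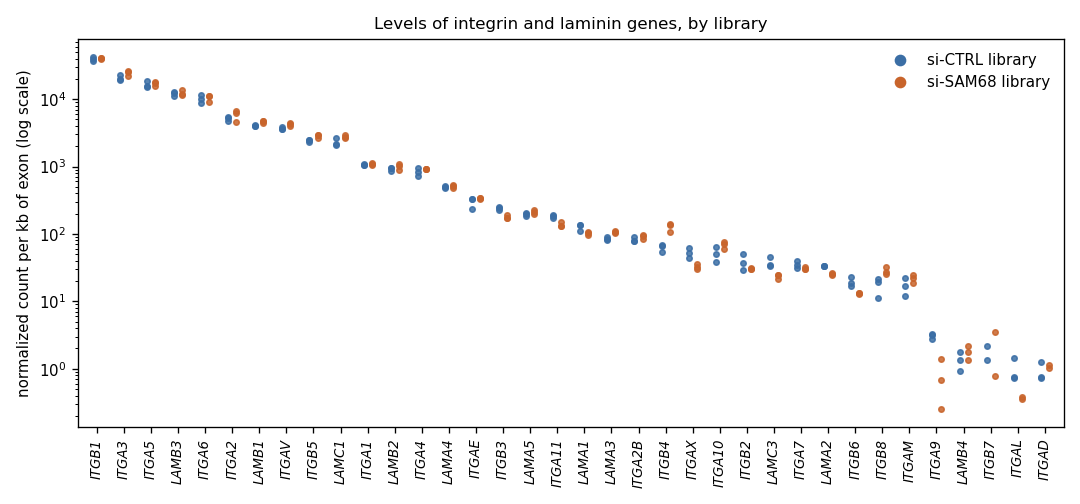
Level of 36 integrin and laminin genes in normalized read counts per kb of exon (log axis), in order of the si-CTRL mean, with 1 point per library, blue for si-CTRL and orange for si-SAM68. The si-CTRL means run from 39388 for ITGB1 to under 1 for ITGAL and ITGAD. Libraries at 0 cannot be drawn on this axis, which leaves out ITGA8 and some points of ITGAL, ITGAD and ITGB7.

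ITGB4 rose the most. It encodes the β4 subunit, which pairs with α6 alone and differs from other β subunits by a long cytoplasmic tail that binds plectin. The locus (chr17:73717408-73753899, hg19) had 409, 416 and 328 normalized read counts in the si-CTRL libraries and 873, 835 and 659 in the si-SAM68 libraries. The lowest si-SAM68 value was above the highest si-CTRL value, and the means were 384 ± 49.0 and 789 ± 114 (SD, n = 3). The log2 fold change was 1.03 (SE 0.14, 95% interval 0.72 to 1.35, adjusted p = 0.00242), a 2.05-fold difference. Without any 1 library the log2 fold change stayed between 0.92 and 1.16, and the adjusted p did not exceed 0.0207. The end of the locus overlaps GALK1, a galactose kinase gene on chr17:73747675-73761317, which had 749, 882 and 909 normalized read counts in si-CTRL and 877, 757 and 744 in si-SAM68 (log2 fold change -0.09, adjusted p = 0.633).

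**Figure D3:**
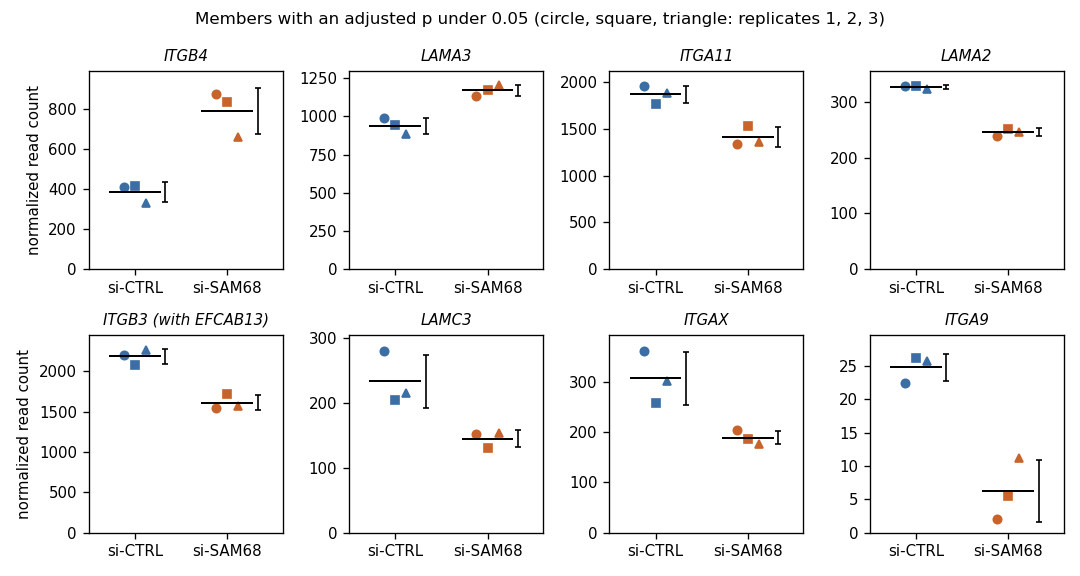
Normalized read count (y axis, from 0) in each library of the 8 genes with an adjusted p under 0.05, in blue for si-CTRL and orange for si-SAM68, with symbols for the replicate number, a line at the mean of 3 libraries and a bar of ± 1 SD. The groups do not overlap in any panel, and the si-SAM68 points are above si-CTRL for ITGB4 and LAMA3 and below for the other 6 genes.

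The α subunits that bind laminin did not pass the test. ITGA6, the α6 subunit and the partner of β4, had 68216, 51879 and 59559 normalized read counts in si-CTRL and 52089.6, 64380.1 and 64694 in si-SAM68, and the groups overlapped (log2 fold change 0.01, 95% interval -0.25 to 0.28). ITGA3, the α3 subunit of the laminin receptor α3β1, had 111456, 97811 and 95153 against 128626, 123899 and 109512, with a log2 fold change of 0.25 (adjusted p = 0.123) that passed only without si-CTRL replicate 1 (adjusted p = 0.0200). For ITGA7, a laminin receptor subunit of muscle, the means were 159 ± 20.7 and 139 ± 6.88 (SD, n = 3), with an adjusted p of 0.460. The ratio of ITGA6 to ITGB4 per kb was 177, 132 and 192 in the si-CTRL libraries and 63.2, 81.6 and 104 in the si-SAM68 libraries, so that ITGA6 RNA exceeded ITGB4 RNA in all of them, by less in every si-SAM68 library.

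ITGB1 was the main β subunit in both groups. It had 165765, 143926 and 154695 normalized read counts in si-CTRL and 152800.1, 160799.8 and 161152 in si-SAM68 (log2 fold change 0.03, 95% interval -0.15 to 0.22, adjusted p = 0.833), on a locus that also holds the small nucleolar RNA SNORA86. ITGB1 made up 93.4 ± 0.309% (SD, n = 3) of the summed β subunit level per kb in si-CTRL and 92.6 ± 0.546% in si-SAM68, and the groups overlapped. ITGB4 made up 0.148 ± 0.0229% and 0.294 ± 0.0473%, and here they did not overlap.

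Of the α subunits that bind collagen together with β1, ITGA11 fell. It encodes α11, a receptor for fibrillar collagen known from fibroblasts, on chr15:68594050-68724504. The si-CTRL libraries had 1952, 1764 and 1884 normalized read counts and the si-SAM68 libraries 1337, 1533 and 1355, so that every si-SAM68 library was below every si-CTRL library. The log2 fold change was -0.41 (SE 0.09, 95% interval -0.61 to -0.21, adjusted p = 0.0200), and the call was lost without si-CTRL replicate 3 (adjusted p = 0.0626), si-SAM68 replicate 1 (0.0752) or si-SAM68 replicate 3 (0.0955). ITGA2, the α2 subunit and by far the most abundant collagen receptor subunit here, had 40806, 37849 and 43323 normalized read counts in si-CTRL and 36568, 52409.6 and 49156 in si-SAM68. These groups overlapped, with si-SAM68 replicate 1 the lowest of all 6 libraries (log2 fold change 0.16, adjusted p = 0.440). ITGA1, on a locus shared with PELO, had a log2 fold change of 0.04 (95% interval -0.12 to 0.19). ITGA10 had one of 0.45 (adjusted p = 0.154).

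The RGD-binding α subunits showed small differences. ITGA5, which forms the fibronectin receptor α5β1, had 81527, 70098 and 67844 normalized read counts in si-CTRL and 78781, 78423 and 70581 in si-SAM68, which overlapped (log2 fold change 0.06, 95% interval -0.15 to 0.26). ITGAV, the αV subunit, had 25582, 27724 and 26220.1 against 28603, 32108 and 30544, and although each si-SAM68 library was above each si-CTRL library, the log2 fold change of 0.20 did not pass (adjusted p = 0.127). ITGA2B, the platelet αIIb subunit, had means of 274 ± 21.3 and 304 ± 24.5 (SD, n = 3, adjusted p = 0.462).

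Besides β1, αV pairs with β3, β5, β6 and β8, whose genes lay on both sides of 0. ITGB3, the β3 subunit of the vitronectin receptor αVβ3, is counted in the table on 1 locus with EFCAB13, a neighbouring gene for an EF-hand protein (chr17:45331205-45518675), so that the value belongs to both genes. The locus had 2201, 2083 and 2270.2 normalized read counts in si-CTRL and 1549, 1721 and 1568 in si-SAM68, with every si-SAM68 library lower. It fell, with a log2 fold change of -0.44 (SE 0.08, 95% interval -0.62 to -0.25, adjusted p = 0.0113), and only without si-SAM68 replicate 3 was the call lost (adjusted p = 0.0626).

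ITGB8, the β8 subunit of αVβ8, which activates latent TGF-β, had 104, 178 and 201 normalized read counts in si-CTRL and 236, 299 and 251 in si-SAM68. The si-SAM68 libraries were all higher, by a log2 fold change of 0.75 (SE 0.23, 95% interval 0.24 to 1.26), which passed the thresholds of the study but not the adjusted one (adjusted p = 0.0653). With the replicate number as a block the adjusted p was 0.0463, and without si-CTRL replicate 3, the highest control, it was 0.0447. Leaving out any other library gave no call: the adjusted p was 0.124, 0.195 and 0.183 without si-SAM68 replicates 1, 2 and 3 and 0.0641 without si-CTRL replicate 2, and without si-CTRL replicate 1, the lowest control, the log2 fold change was 0.46 (adjusted p = 0.0557). A locus without a symbol that overlaps the start of ITGB8 (chr7:20367926-20371385) had 37.5, 56.2 and 68.4 normalized read counts in si-CTRL and 98.7, 74.5 and 78.2 in si-SAM68 (adjusted p = 0.123).

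ITGB5, the β5 subunit and after β1 the most abundant αV partner, had 10714, 10164 and 10797 normalized read counts in si-CTRL and 12736, 12997 and 11509 in si-SAM68. All si-SAM68 libraries were higher, by a log2 fold change of 0.23 (adjusted p = 0.0807), which passed without si-CTRL replicate 1 (adjusted p = 0.0371). ITGB6, the epithelial β6 subunit, had a lower level, with 87.5, 108 and 79.9 in si-CTRL and 60.4, 62.6 and 62.6 in si-SAM68. Here every si-SAM68 library was lower, with a log2 fold change of -0.55 (adjusted p = 0.0865).

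ITGA9 had the greatest fold change of the 33 genes, at a very low level. It encodes α9, a receptor for tenascin-C and osteopontin, on chr3:37493606-37865003. The si-CTRL libraries had 22.5, 26.2 and 25.7 normalized read counts and the si-SAM68 libraries 2.01, 5.52 and 11.2, which rest on 18, 27 and 27 reads and on 2, 6 and 10 reads. The groups did not overlap, and the log2 fold change was -2.05 (SE 0.51, 95% interval -3.20 to -0.91, adjusted p = 0.0333). The call was lost without si-CTRL replicate 2 (adjusted p = 0.0755), si-CTRL replicate 3 (0.0891), si-SAM68 replicate 1 (0.0749) or si-SAM68 replicate 2 (0.0798). The antisense locus ITGA9-AS1, which overlaps ITGA9, had 26.2, 44.6 and 27.6 in si-CTRL and 15.1, 20.2 and 13.4 in si-SAM68 (log2 fold change -0.95, adjusted p = 0.0918). Whether strand was used in counting is not given in the sources used here, so that reads of such partners cannot be told apart. ITGA4, the related α4 subunit of the VCAM-1 receptor, was far more abundant, with means of 3817 ± 479 and 4218 ± 42.8 (SD, n = 3, adjusted p = 0.338).

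Among the subunits known from leukocytes, ITGAX fell. It encodes αX (CD11c), a β2 partner of myeloid cells, on chr16:31366455-31394319. The si-CTRL libraries had 364, 259 and 303 normalized read counts and the si-SAM68 libraries 205, 187 and 178, with no overlap. The log2 fold change was -0.69 (SE 0.15, 95% interval -1.02 to -0.36, adjusted p = 0.0188), and the call was lost without si-CTRL replicate 3 (adjusted p = 0.0525), si-SAM68 replicate 2 (0.0669) or si-SAM68 replicate 3 (0.0931). ITGAM, which encodes αM (CD11b) and ends 22.2 kb before ITGAX on chromosome 16, had 106, 56.2 and 78.9 in si-CTRL and 104, 116 and 89.4 in si-SAM68, which overlapped (log2 fold change 0.39, adjusted p = 0.320). ITGB2, the β2 subunit that αX needs, had 130.0, 104 and 174 against 107, 106 and 111 (log2 fold change -0.30, adjusted p = 0.354). ITGAE, the αE subunit of intraepithelial lymphocytes, had means of 1157 ± 227 and 1310.2 ± 42.5 (SD, n = 3, adjusted p = 0.385). Its locus is overlapped by GSG2, which had a mean of 797 over all libraries (log2 fold change -0.18, adjusted p = 0.314). The defining leukocyte markers were at or near 0 in all libraries (at most 13.6 normalized read counts).

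The laminin α chains, which carry the sites bound by integrins, differed in direction. LAMA3, the α3 chain of laminin-332 (chr18:21269407-21535033), rose, from 987, 943 and 884 normalized read counts in si-CTRL to 1132, 1174 and 1204 in si-SAM68, with no overlap between the groups. The log2 fold change was 0.32 (SE 0.09, 95% interval 0.12 to 0.51, adjusted p = 0.0447), close to the threshold. With the replicate number as a block the adjusted p was 0.0739. Among the fits that leave out 1 library, the call held only without si-CTRL replicate 1. The adjusted p was 0.0936 without si-CTRL replicate 2, 0.140 without si-CTRL replicate 3, and, leaving out si-SAM68 replicates 1, 2 and 3 in turn, 0.0886, 0.158 and 0.158.

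LAMA2, the α2 chain known from muscle and nerve, fell. It had 329, 329 and 323 normalized read counts in si-CTRL and 239, 252 and 247 in si-SAM68 (chr6:129204286-129837708), and both groups had a narrow spread without overlap. The log2 fold change was -0.41 (SE 0.11, 95% interval -0.65 to -0.17, adjusted p = 0.0398), with an adjusted p of 0.0677 under the replicate block. The adjusted p was 0.0901 without si-CTRL replicate 2, 0.0976 without si-CTRL replicate 3, and, leaving out si-SAM68 replicates 1, 2 and 3 in turn, 0.104, 0.115 and 0.120. A locus without a symbol that overlaps its end (chr6:129800759-129873731) had 17.5, 17.4 and 21.9 in si-CTRL and 8.06, 3.68 and 6.70 in si-SAM68 (log2 fold change -1.53, adjusted p = 0.0437).

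The other α chains did not pass. LAMA1, the α1 chain of early basement membranes, had means of 1248 ± 144 and 1005 ± 53.1 (SD, n = 3) and a log2 fold change of -0.31 (adjusted p = 0.0949, and 0.00794 without si-CTRL replicate 1). LAMA5, the α5 chain of laminin-511, counted with the microRNA gene MIR4758, had 2112, 2321 and 2222 normalized read counts in si-CTRL and 2582, 2410.1 and 2248 in si-SAM68 (log2 fold change 0.12, adjusted p = 0.395). LAMA4, the α4 chain of vessel walls, made up 53.1 ± 1.55% of the summed α chain level per kb in si-CTRL and 53.6 ± 1.98% in si-SAM68 (SD, n = 3), the greatest share of the 5 α chains. Its log2 fold change was 0.05 (95% interval -0.12 to 0.21).

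No laminin β chain passed the test. LAMB3, the β3 chain of laminin-332, counted with MIR4260, had 55680.0, 49967 and 57608 normalized read counts in si-CTRL and 52501, 60611 and 52958 in si-SAM68, which overlapped (log2 fold change 0.02, 95% interval -0.17 to 0.22). LAMB1, the β1 chain of laminin-111 and laminin-511, had 25344, 25067 and 25081 against 29396, 29274 and 27357, and all si-SAM68 libraries were higher (log2 fold change 0.19, adjusted p = 0.114). LAMB2, the β2 chain, had a log2 fold change of 0.14 (adjusted p = 0.387).

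Of the γ chains, LAMC3 fell. It encodes γ3, the least abundant γ chain here, on chr9:133884504-133969859, and had 280.0, 204 and 215 normalized read counts in si-CTRL and 151, 129.7 and 153 in si-SAM68 without overlap. The log2 fold change was -0.67 (SE 0.16, 95% interval -1.03 to -0.32, adjusted p = 0.0260). The call was lost without si-CTRL replicate 3 (adjusted p = 0.0521) or any of the si-SAM68 libraries (0.0688, 0.0997 and 0.0844 without replicates 1, 2 and 3). LAMC1, the γ1 chain of laminin-111 and laminin-511, had 21171, 16601 and 16795 in si-CTRL and 21212, 23289.7 and 21280.1 in si-SAM68. All si-SAM68 libraries were above the si-CTRL libraries, with si-CTRL replicate 1 just under them (log2 fold change 0.28, adjusted p = 0.112). Without si-CTRL replicate 1 the adjusted p was 0.00249.

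LAMA3 had a lower level per kb than LAMB3, the other laminin-332 chain followed here: the ratio of LAMB3 to LAMA3 per kb was 139, 130.2 and 160.2 in the si-CTRL libraries and 114, 127 and 108 in the si-SAM68 libraries, which did not overlap. LAMA3 was divided by 11037 bases of exon and LAMB3 by 4489, the union over their transcripts. Which transcripts were made was not tested, and a shorter LAMA3 transcript would lower these ratios. With 3 libraries against 3, an exact permutation test of such a ratio cannot give a two-sided p below 0.1, and none was run.

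**Figure D4:**
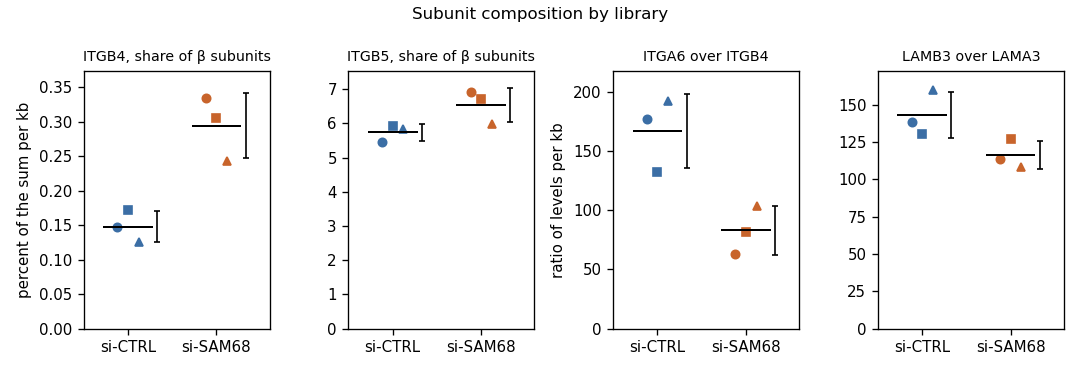
Share of ITGB4 and of ITGB5 in the summed β subunit level (percent, left panels), and ratios of ITGA6 to ITGB4 and of LAMB3 to LAMA3 (right panels), all from normalized read counts per kb, in each library of si-CTRL (blue) and si-SAM68 (orange), with lines at the mean of 3 libraries and bars of ± 1 SD. In si-SAM68 the ITGB4 share is 0.294% against 0.148% in si-CTRL, and the ITGA6 to ITGB4 ratio 82.9 against 167.

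Sites for the siRNA seeds shown above were counted in the longest annotated 3′UTR of each gene. 7 of the 33 tested members (21.2%) had a site for at least 1 of the 4 SAM68 siRNAs, against 28.8% of 13253 tested genes. ITGB4 and LAMA3, which rose, had none. Of the 6 members that fell, ITGA9 had a site for siSAM68_3 and ITGA11 had sites for siSAM68_2 and siSAM68_3, whereas ITGAX, LAMC3, ITGB3 and LAMA2 had none. The 3′UTR of EFCAB13, which is counted on the same locus as ITGB3, was not searched. ITGA1, ITGAV, ITGB1 and ITGB6, which also had sites, did not pass the test. Sites for the siRNAs of the control pool were found in 16 of the 33 members (48.5%), against 54.9% of the 13253 genes. They were in 3 of the 6 members that fell and in 0 of the 2 that rose. A site is a match of 7 letters, and whether the siRNA of either pool acts on it was not tested.

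Other genes of integrin and laminin function were taken as 4 lists of 76 genes in all, of which 72 were tested and 8 were called, 3 higher and 5 lower, beside the background of 10.7%. The median log2 fold change over the 72 genes was -0.05. Of the adaptors that link integrin tails to actin, 3 of 31 were called, among them VCL higher and PARVA lower. Of the hemidesmosome components and other laminin receptors it was 3 of 9, DAG1 higher and COL17A1 and SDC2 lower. 1 of 14 basement membrane genes (COL7A1) and 1 of 18 genes for other ligands (ICAM1) were called, both lower.

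PARVA encodes α-parvin, which joins integrin-linked kinase and PINCH in a complex at focal adhesions. It had 3196, 3338 and 3236 normalized read counts in si-CTRL and 1462, 1389 and 1372 in si-SAM68, a log2 fold change of -1.21 (SE 0.08, adjusted p = 6.83e-05). All si-SAM68 values lay below all si-CTRL values, on average at 0.432 times their level. ILK, the kinase-like partner, had a log2 fold change of -0.07 (adjusted p = 0.671), LIMS1, which encodes PINCH1, one of 0.13 (0.302) and PARVB, the related β-parvin, one of -0.28 (0.197), which passed only without si-CTRL replicate 1 (0.0445). VCL, which encodes the actin linker vinculin, had 32343, 29555 and 29504 in si-CTRL and 38570.0, 41324 and 37393 in si-SAM68 (log2 fold change 0.36, adjusted p = 0.0178). PARVA kept its call without any 1 library (adjusted p at most 0.00235), whereas VCL reached 0.0954 without si-SAM68 replicate 2 and also lost it without each other library except si-CTRL replicate 1. The talins, kindlins and PTK2, the focal adhesion kinase, did not pass.

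Of the 4 listed genes that act beside α6β4, COL17A1, PLEC, DST and CD151, COL17A1 alone passed. It encodes a transmembrane collagen of hemidesmosomes and had 781, 624 and 755 normalized read counts in si-CTRL and 259, 455 and 449 in si-SAM68 (log2 fold change -0.93, adjusted p = 0.0200), opposite in direction to ITGB4. PLEC, which encodes plectin, had 18986, 21722 and 22065 against 23824, 30290.0 and 25748 (log2 fold change 0.34, adjusted p = 0.0595, and 0.0406 with the replicate block). DST, another hemidesmosome linker, had a log2 fold change of 0.34 (adjusted p = 0.249), and CD151, a tetraspanin that associates with laminin-binding integrins, one of 0.13 (0.512). COL17A1 lost its call without si-CTRL replicate 3 (adjusted p = 0.0555) or si-SAM68 replicate 3 (0.0528).

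Among the laminin receptors that are no integrins, SDC2, the heparan sulfate proteoglycan syndecan-2, had 137, 205 and 177 normalized read counts in si-CTRL and 62.5, 53.4 and 51.4 in si-SAM68, a log2 fold change of -1.60 (SE 0.19, adjusted p = 0.00123). DAG1, which encodes dystroglycan, had 22309.5, 19801 and 19419 against 28448, 27678 and 25672 (log2 fold change 0.41, adjusted p = 0.0133). It lost its call without si-CTRL replicate 3 (adjusted p = 0.0523), si-SAM68 replicate 1 (0.0595) or si-SAM68 replicate 2 (0.0639), whereas SDC2 kept it without any 1 library (adjusted p at most 0.0140).

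Of the ligands, ICAM1, a receptor on other cells for the β2 integrins, counted on 1 locus with ICAM4, had 7059, 5928 and 5439 normalized read counts in si-CTRL and 3713, 4266 and 3689.7 in si-SAM68 (log2 fold change -0.65, adjusted p = 0.00588, at most 0.0452 without any 1 library). COL7A1, the collagen of anchoring fibrils that binds laminin-332, had 5173, 5968 and 5905 against 4892, 4467 and 4173 (log2 fold change -0.33, adjusted p = 0.0431). The adjusted p of COL7A1 was 0.0751 with the replicate block, and it stayed under 0.05 only without si-CTRL replicate 1, with 0.112 and 0.123 without the other si-CTRL libraries and 0.0584, 0.144 and 0.173 without si-SAM68 replicates 1, 2 and 3. Fibronectin (FN1, log2 fold change 0.19, adjusted p = 0.298), the main ligand of α5β1, did not pass. SPP1, which encodes osteopontin, had 3516, 1809 and 2235 in si-CTRL and 3664, 3664 and 3504 in si-SAM68, with si-CTRL replicate 1 among the si-SAM68 values (log2 fold change 0.58, adjusted p = 0.0888). Without si-CTRL replicate 1 the log2 fold change of SPP1 was 0.84 (adjusted p = 0.000213), and without any other library it did not pass (adjusted p up to 0.222, log2 fold change down to 0.36).

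**Figure D5:**
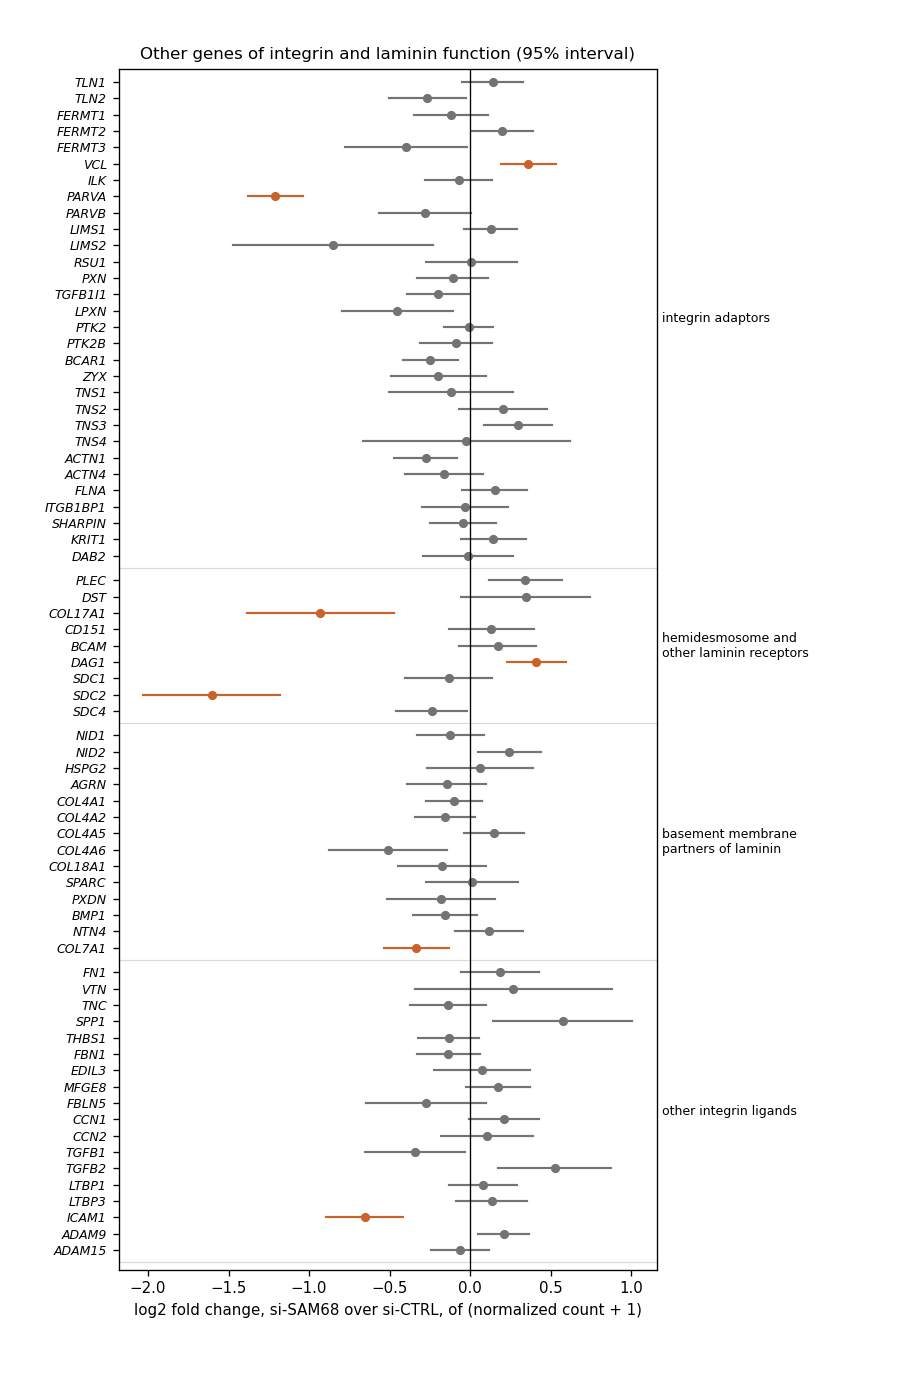
Log2 fold change (x axis, si-SAM68 over si-CTRL on normalized read count + 1) of tested genes of integrin and laminin function that are no integrin or laminin (71 of the 72), with 95% intervals from limma and grouped by list. Orange marks genes with an adjusted p under 0.05, with SDC2 and PARVA farthest to the left and VCL and DAG1 to the right.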

How the data were processed

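Each value in the table that the authors deposited is a signal: the reads on a FAST DB locus (hg19), scaled by the DESeq2 size factor of the library. The submitters' processing notes name FastQC, Picard, SAMtools, STAR 2.4.0 and DESeq2. The labels give a stranded mRNA kit and a harvest at 24 h after the second transfection, whereas the study's methods give a different time. Whether strand was used in counting is not given in the sources used here. Each library's values were whole multiples of a step fitted from its smallest value. This held for 100% of them, within 0.01 of a step or, at high counts, within a wider margin that makes the check weaker. It gave back the reads, between 52625492 and 82568487 per library when summed over all loci, so that precision is limited by 3 libraries per group. 41493 of 74852 loci were at 0 in every library.

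Groups were compared by limma 3.58.1 under R 4.3.3, using lmFit and eBayes with trend, after adding 1 and taking log2. The 18849 loci averaging at least 10 normalized read counts were tested, without a replicate block and with Benjamini-Hochberg adjustment over all of them. A trial of the fit on simulated counts held only large changes, in loci with means above 50, so it does not bear on small changes or low levels. The deviations of libraries with the same replicate number from their group means correlated at 0.105, 0.231 and 0.125, and those with different numbers at -0.125 to 0.007. Deviations within a group sum to 0, which ties these values to each other. They therefore cannot show whether the numbers pair the libraries, and a blocked fit was made as an alternative. Other alternatives were pseudocounts of 0.1 and 5, no filter, a minimum mean of 50, TMM factors, quantile normalization, each library left out, and edgeR 4.0.16 and DESeq2 1.42.0 on the recovered reads. Levels per kb used the union of GENCODE v29 exons of a gene's protein-coding transcripts (38 of 38 members matched). These lengths were summed where a locus held more than 1 such gene. Sequences of the siRNAs are from the study's supplement, and 3′UTRs from GENCODE v29.

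The members and lists were chosen with earlier results of these data known. The genes given by library were those called, integrin and laminin genes named in the design whatever their p, and the called genes of each further list. Other genes of those lists, and loci that overlap a member, were named after their values were seen. Some genes enter the counts but are not reported here by name.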

Additional observations from a re-analysis of the deposited data

How the results depend on the processing

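Of the calls on members, that of ITGB4 held under every alternative run. The 2 genes that rose became 1 without the filter on low values and 4 with DESeq2 on the recovered reads, which added ITGB5 and ITGB8, and were 1 to 5 when 1 library was left out. The 6 that fell were also 6 with DESeq2, which called LAMA1 and gave ITGA9 no adjusted p, and 1 to 7 when 1 library was left out, and the 5 at the thresholds of the study were 3 to 7. The 3 further genes of integrin and laminin function that rose were 7 with DESeq2 and 0 to 8 when 1 library was left out, and the 5 that fell were 9 with DESeq2 and 3 to 8. The count over all loci moved as well, from 2017 to between 625 (si-SAM68 replicate 3 left out) and 2839 (si-CTRL replicate 1 left out). With DESeq2 it was 2789 of 18849 loci, and without the filter 1500 of 33359. No count over all loci was made under an alternative at the thresholds of the study. With the replicate number as a block, 7 members were called (background 9.0%), with ITGB8 gained (adjusted p = 0.0463) and LAMA2 (0.0677) and LAMA3 (0.0739) lost, and the block changed no other call on a member. Without the filter LAMA2 (0.0677) and LAMA3 (0.0657), and with quantile normalization LAMA2 (0.0590), were not called. Direction changed only in members that were not called. With quantile normalization the log2 fold changes were -0.021 for ITGA6, -0.025 for ITGA5 and -0.016 for LAMB3. Leaving out 1 library gave -0.085 to 0.12 for ITGA6, -0.018 to 0.084 for ITGB1 and -0.043 to 0.067 for LAMB3. In all, 430 of the members' values under an alternative kept direction and side of the threshold, 30 were no longer called, 9 became called and 9 changed direction. The causes were not tested.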
